A study of Mus musculus with 23 samples.

Results

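Zinc finger genes whose span carries H3K9me3 were examined in naive CD4+ T cells of the mouse. They were the protein-coding genes named Zfp, Zscan or Zkscan plus a number, with Zfp36 left out and Rex2 added, that shared at least 1 bp with the merged H3K9me3 peak list. This rule found 98 genes among 389 with such names and among 21887 protein-coding genes on chromosomes 1 to 19, X and Y. Below, counts of zinc finger genes cover these names only, so genes with a letter suffix or another name are not among them. The span is the stretch between the outermost ends of a gene in the RefSeq table of the assembly GRCm38.p6, whose positions equal those of mm10. Since the genes were chosen by the H3K9me3 list, every H3K9me3 value below is a description and carries no test.

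The profiles came from CUT&Tag, in which an antibody brings a transposase to its target and the DNA nearby is cut and tagged. Spleens and lymph nodes (pLN in the labels) gave the cells, from mice of the genotypes DDX55 KO and WT, with no age or strain in the sources used here. DDX55 is a DEAD-box RNA helicase. H3K9me3, RNA polymerase II and DDX55 each had 4 samples, 2 DDX55 KO and 2 WT, and all of these were untreated. R-loops, in which RNA pairs with a strand of DNA, were profiled with the S9.6 antibody in 8 samples. Of these, 2 DDX55 KO and 2 WT samples received RNase H, and 2 DDX55 KO and 2 WT samples did not. For each target there was 1 merged list of peak positions, named by the labels of DDX55 KO and WT samples alike, with no height and no value per sample. No difference between genotypes, no RNase H effect and no replicate spread could therefore be measured, and the depth is unknown. The lists held 16474 H3K9me3, 10898 RNA polymerase II, 1473 R-loop and 215 DDX55 peaks on these chromosomes. Of 12 genes fixed as marks of CD4+ T cells, 10 had an RNA polymerase II peak on the span, and of 12 fixed for other blood cells 0 had. The cells were profiled in bulk, so peaks of different targets on a gene need not come from the same cells, alleles or genotype.

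Mouse C2H2 zinc finger genes form a large family of DNA-binding proteins, and many carry a KRAB domain that recruits TRIM28 and, through it, the H3K9 methyltransferase SETDB1. Many KRAB zinc finger proteins bind transposable elements and keep them silent. Their genes lie in tandem clusters, and the zinc finger array is usually encoded by the last exon. H3K9me3 itself marks heterochromatin, and it is known from other mouse and human cells to cover zinc finger genes.

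The mark covered a small part of most of these genes. The median covered share of the span was 6.66%, with a range of 0.284% to 40.2% over the 98 genes, and the median covered length was 1434 bp. Their median span was 22859 bp. By comparison 1083 other protein-coding genes met the list, with a median covered share of 1.33% and a median span of 90751 bp. Their median covered length was 1115 bp, and covered shares were not compared among genes of like span. Across all protein-coding genes 5.40% met the list, and the 98 genes were drawn from these. At least 5% of the span was covered in 67 of the 98 genes, beside 1.60% of all protein-coding genes, and at least 20% in 6. A single peak lay on 68 genes, 2 peaks on 12, 3 to 8 peaks on 16 and more on 2. The 222 distinct peaks on these genes had a median width of 1106 bp, against 606 bp over all H3K9me3 peaks.

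Zfp992 on chromosome 4 had the largest covered share, with 4 peaks over 40.2% of its 20411 bp. Zfp640 on chromosome 13 followed with 26.3%, and Zfp110 on chromosome 7 with 25.2%. Zfp110 encodes a neurotrophin receptor-interacting factor, and Zfp369 on chromosome 13, which encodes its close relative, had 8.59%. Zfp433 on chromosome 10 reached 18.6% and Zfp68 on chromosome 5 reached 17.8%. Zfp809, whose KRAB zinc finger protein silences proviral DNA in mouse embryonic stem cells, had 1 peak of 1466 bp over 5.15% of its span. Zfp445, known for its part in keeping genomic imprints, had 1 peak of 1072 bp (2.83%). Zfp42, the pluripotency gene also called Rex1, had 309 bp (2.59%). These last 3 genes and Zfp369 were singled out for their known roles after their values were seen.

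**Figure D1:**
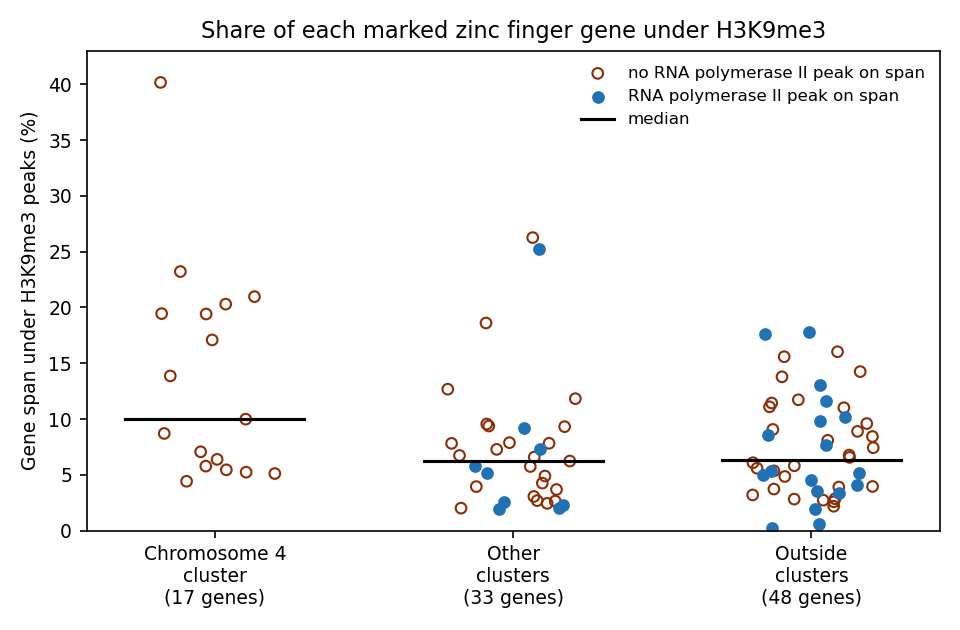
Each point is 1 marked zinc finger gene, placed by the share of its span under H3K9me3 peaks (vertical axis, %) in the chromosome 4 cluster (17 genes), other clusters (33) and outside clusters (48). Lines are medians of 9.99%, 6.24% and 6.33%. Filled points have an RNA polymerase II peak on the span, and the chromosome 4 cluster has none of these.

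Just inside the rule lay genes with little coverage. The smallest overlaps were 305 bp in Zfp273, 309 bp in Zfp42, 348 bp in Zfp189, 354 bp in Zfp438 and 375 bp in Zfp513. Just outside lay Zfp994, whose span ended 323 bp from the nearest H3K9me3 peak, then Zfp971 (1782 bp), Zfp942 (2117 bp), Zfp236 (2187 bp) and Zfp747 (2273 bp). No gene was a member through a few bases only.

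H3K9me3 lay toward the end of most of these genes. A strand was listed for 81 of the 98 genes and for 846 of the 1083 other marked genes, and each span was read from start to end in 10 equal parts numbered from the start, with every gene weighing the same. Parts 6 to 10 held 81.8% of the mark in zinc finger genes and 53.1% in other marked genes. Parts 8 to 10 held 71.4% in zinc finger genes and 32.7% in other marked genes. Part 9 alone held 29.3% in zinc finger genes, against 11.1% in other marked genes. Among other marked genes with spans like those of the zinc finger genes (11602 to 58015 bp), parts 6 to 10 held 56.9% over 239 genes.

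**Figure D2:**
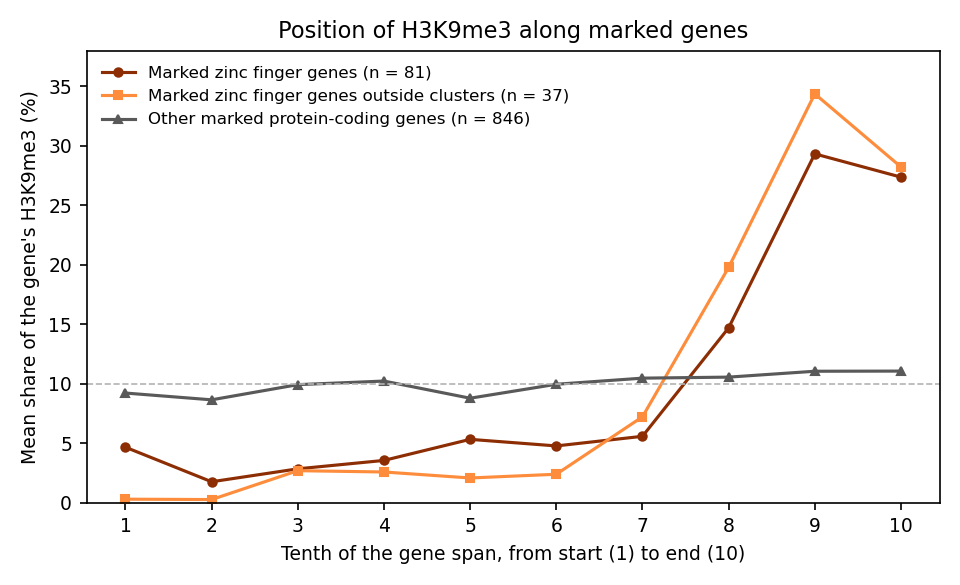
The horizontal axis divides each gene span into 10 parts from start to end, and the vertical axis gives the mean share (%) of the gene's H3K9me3 in each part. Marked zinc finger genes (81) and those outside clusters (37) climb to 29.3% and 34.4% in part 9, while other marked protein-coding genes (846) stay between 8.66% and 11.1%. The dashed line is an even spread.

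The middle of the marked sequence lay past the centre of the span in 66 of the 81 genes and in the last 20% of the span in 46. A peak lay within 3000 bp of the gene's last base in 59 of 81 genes (72.8%), beside 2.30% of all protein-coding genes with a strand. Within 1000 bp it was 24 of 81 (29.6%), beside 0.983%. The mark thus tended to sit near the last base but not on it, with a median distance of 1750 bp. The start was marked less often: a peak lay within 1000 bp of a listed start in 12 of 81 genes (14.8%), beside 0.892% of all. Within 3000 bp of a listed start it was 14 of 81 (17.3%), beside 1.65%, and within 3000 bp of either gene end 72 of 98 (73.5%), beside 2.96%. Since the list that chose the genes also gives these counts, nothing is read from their height above the background. The other marked genes, with a median span of 90751 bp, had a peak within 3000 bp of the last base in 216 of 846 (25.5%). Within 1000 bp of it the share was 13.7%. Their starts were marked in 15.0% within 1000 bp and 22.6% within 3000 bp, so the zinc finger genes had no higher share at the start. Within 3000 bp of either gene end it was 355 of 1083 (32.8%).

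In 6 genes the middle of the mark lay in the first 20% of the span. They were Zfp988, Zfp982, Zfp985 and Zfp979 of the chromosome 4 cluster, Zfp640 on chromosome 13 and Zscan18 on chromosome 7. The Zscan18 peak, 879 bp wide, lay at the 5′ end of the span but over 1000 bp from a listed start, and inside the overlapping span of Zfp329 as well. Outside clusters parts 6 to 10 held 92.0% of the mark over 37 genes. In the chromosome 4 cluster the median position of the mark was 40.2% of the span over 13 genes, against 82.7% over the 68 others. Among the 13 it ranged from 2.21% to 97.4%. Their ends were marked as well. A peak lay within 3000 bp of the last base in 12 of the 13 (92.3%), against 47 of the 68 (69.1%).

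About 1 in 4 of the genes also had RNA polymerase II, the enzyme that transcribes protein-coding genes, and in most of these it lay near the start. A peak lay on the span of 27 of 98 genes (27.6%), beside 32.2% of all protein-coding genes. Of the 24 with a strand, 22 had such a peak within 1000 bp of a listed start. In 19 the midpoint of the widest peak lay in the first 10% of the span or before it. The matching share among all protein-coding genes with RNA polymerase II was not computed, so this position is not shown to be particular to marked genes. Counting peaks on or off the span, 24 of 81 marked genes (29.6%) had one within 1000 bp of a listed start, beside 30.9% of all. Near the last base, within 3000 bp, RNA polymerase II lay in 3 of 81 marked genes (3.70%), beside 9.84% of all protein-coding genes and 17 of 240 unmarked zinc finger genes (7.08%). In Zfp959, Zfp458 and Zfp595 the peak lay further along the span but at a listed start inside it. The exceptions with no peak within 1000 bp of a listed start were Zscan20 and Zfp932. In Zscan20 the peak was 170 bp wide and lay at 49.8% of the span. In Zfp932, known to repress endogenous retroviruses in the mouse, it was 292 bp wide, lay at 91.8% of the span and was 416 bp from the H3K9me3 peak.

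Over the 27 genes the median distance from the widest RNA polymerase II peak to the nearest H3K9me3 peak on the gene was 11473 bp. Zfp810 on chromosome 9 (minus strand) shows the usual layout. Its RNA polymerase II peak of 926 bp (chr9:22307312-22308237) lay over the start, and its H3K9me3 peak of 2859 bp (chr9:22277441-22280299) lay 27013 bp away near the end. In Zfp110 the RNA polymerase II peak of 749 bp (chr7:12834494-12835242) lay over the start and the wider H3K9me3 peak of 2335 bp (chr7:12847413-12849747) near the end. In Zfp949 a 1038 bp RNA polymerase II peak at the start lay 20435 bp from a 1772 bp H3K9me3 peak. The marks met on 1 gene, Zfp180 on chromosome 7, whose start carried peaks of both, with a further H3K9me3 peak of 2658 bp near its end. The widest RNA polymerase II peak, 1326 bp, belonged to Zfp654, which had 4 such peaks and 0.637% of its span under H3K9me3.

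**Figure D3:**
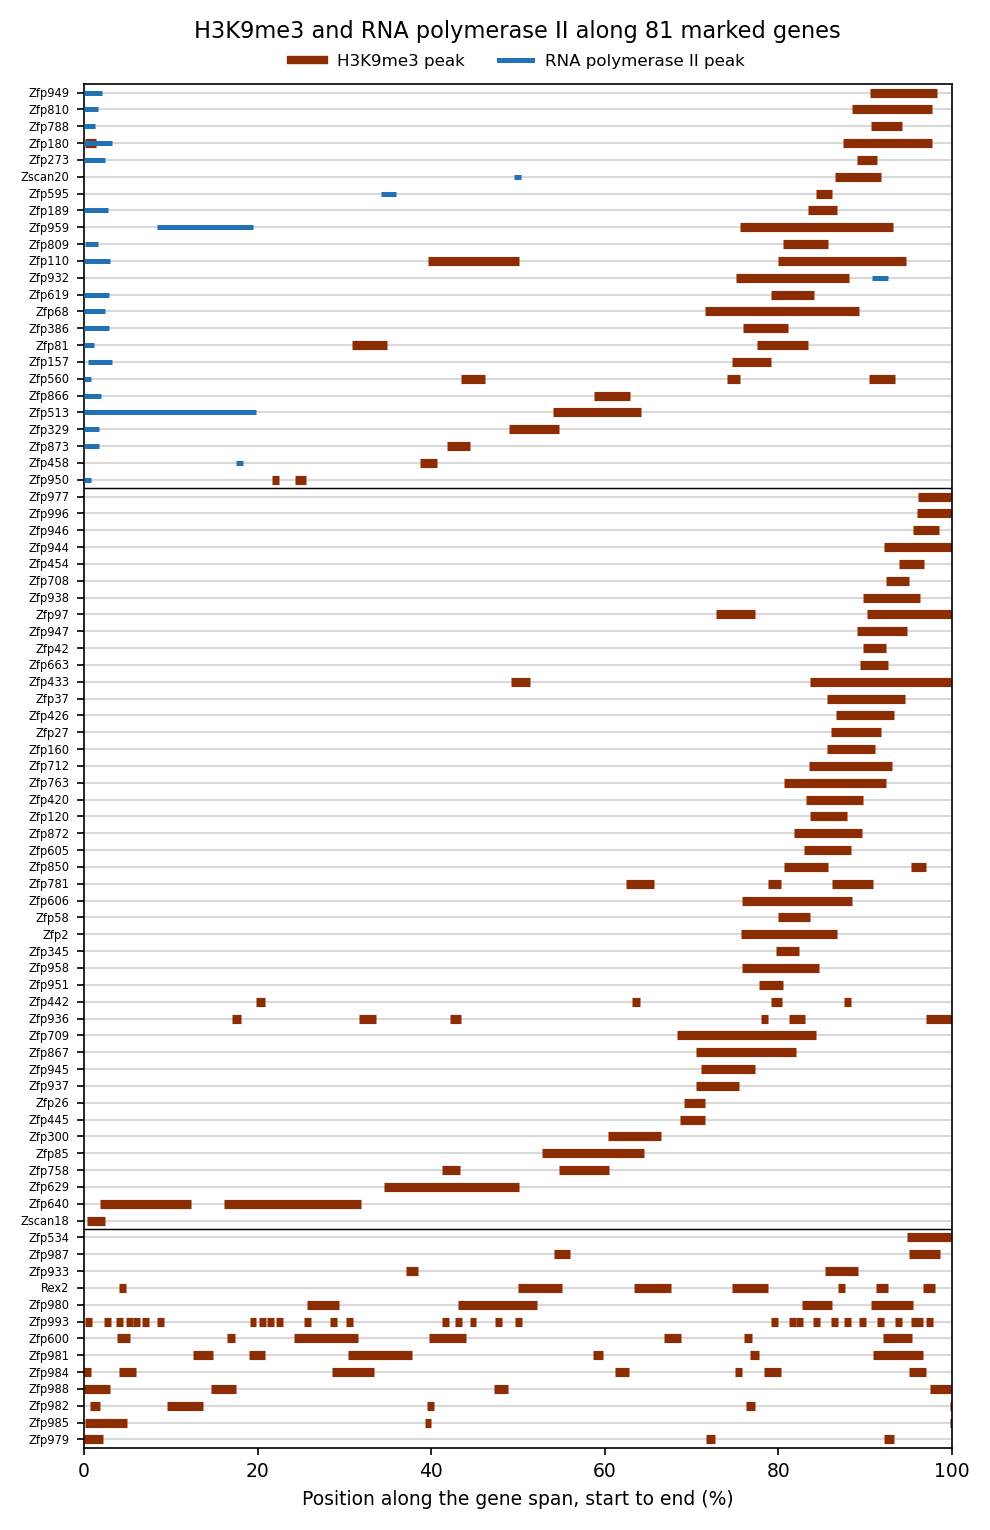
Each row is 1 of the 81 marked genes with a listed strand, scaled from start (0%) to end (100%), with H3K9me3 peaks as thick and RNA polymerase II peaks as thin segments. The upper block holds the 24 genes with RNA polymerase II on the span, the lowest block the 13 genes of the chromosome 4 cluster, and the block between them the remaining genes. RNA polymerase II lies at the left in most rows of the upper block, and H3K9me3 at the right in most rows of the upper and the middle block.

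The position of H3K9me3 was compared between genes with and without RNA polymerase II at the start, with no test. The median position of the mark was 81.1% of the span in the 24 genes that had RNA polymerase II within 1000 bp of a start, against 81.9% in the 57 without. Those 57 join 2 unlike groups, with a median position of 40.2% in the 13 genes of the chromosome 4 cluster and 84.9% in the other 44. The median covered share was 5.48% in genes with such a peak and 6.56% in genes without. A peak of H3K9me3 within 1000 bp of a start was present in 1 of the 24 (4.17%) and in 11 of the 57 (19.3%). Outside the chromosome 4 cluster the second share was 2 of 44 (4.55%).

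A smaller share of marked than of unmarked zinc finger genes had RNA polymerase II. A peak lay within 3000 bp of either gene end in 28 of 98 marked genes (28.6%, exact 95% interval 19.9% to 38.6%), against 134 of 291 unmarked zinc finger genes (46.0%, 40.2% to 52.0%). Among all protein-coding genes the share was 33.5%, and among the 1083 other marked genes it was 14.1%. The intervals cover counting error only, no test was made on the lists, and neighbouring genes are not independent. The difference was smaller outside clusters. Outside clusters 20 of 48 marked genes had such a peak (41.7%, 27.6% to 56.8%), an interval that overlaps that of unmarked genes, whereas in clusters it was 8 of 50 (16.0%). The unmarked side stayed at all 291 genes, including those that lie inside the clusters. Without the chromosome 4 cluster 28 of 81 marked genes had one (34.6%). Restricting unmarked genes to spans like those of the marked genes left 88 of 193 (45.6%).

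**Figure D4:**
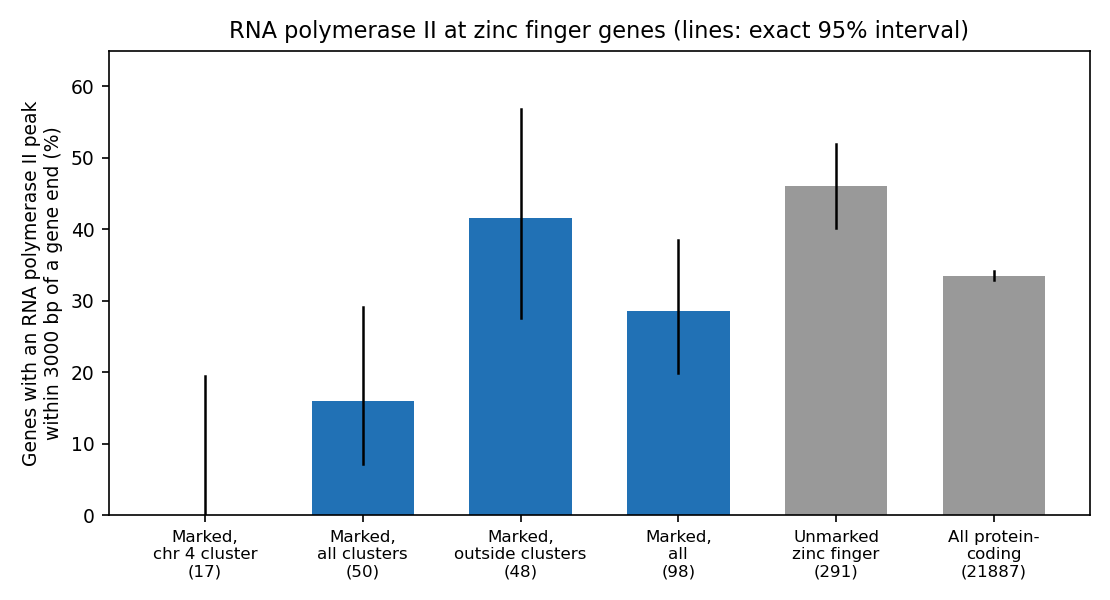
Bars give the share of genes (%) with RNA polymerase II within 3000 bp of either gene end, and lines the exact 95% interval, with the number of genes in brackets. Marked genes outside clusters (41.7%) stand near unmarked zinc finger genes (46.0%, inside and outside clusters alike), while the 17 genes of the chromosome 4 cluster are at 0.

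Part of the marked genes lay in clusters. The run rule used here was not applied to unmarked zinc finger genes, so no share for the whole family stands beside the count. Clustering is therefore not shown to be particular to the marked genes. Runs of at least 3 marked genes with no more than 500 kb between neighbours held 50 of the 98 genes in 8 clusters, and genes within a cluster share their source and are not independent. Chromosome 4 held 20 marked genes of its 30 zinc finger genes and chromosome 10 held 4 of 5. Chromosome 7, with 93 zinc finger genes, had 13 marked. The largest cluster lay on chromosome 4 with 17 genes, and the next on chromosome 13 with 8, on chromosome 17 with 6, and on chromosomes 2 and 7 with 4 each. A further pair of clusters lay on chromosome 9 (4 and 3 genes), and chromosome 10 held 4.

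The chromosome 4 cluster (chr4:145510759-147849126) held the most H3K9me3 of the 8. All 17 zinc finger genes in its 2.34 Mb with names that fit the rule had H3K9me3. Its 208 peaks covered 13.3% of its length, against 0.491% over all chromosomes together. Of these peaks 120 lay on the 17 genes, whose covered shares ran from 4.43% in Zfp979 to 40.2% in Zfp992 (median 9.99%). Zfp978 held 41 peaks over 62028 bp and Zfp993 held 31 over 41686 bp. Their long spans enclose or overlap others, so that Zfp978 shares peaks with Zfp988 and Zfp991, and Zfp993 with Rex2 and Zfp981. Rex2, known from mouse embryonic stem cells, had 7 peaks over 14900 bp, the widest 4436 bp (chr4:147017219-147021654). There were 0 RNA polymerase II peaks anywhere in the cluster. A listed start lay within 1000 bp of H3K9me3 in 9 of its 13 genes with a strand, against 3 of the 68 other marked genes with a strand.

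**Figure D5:**
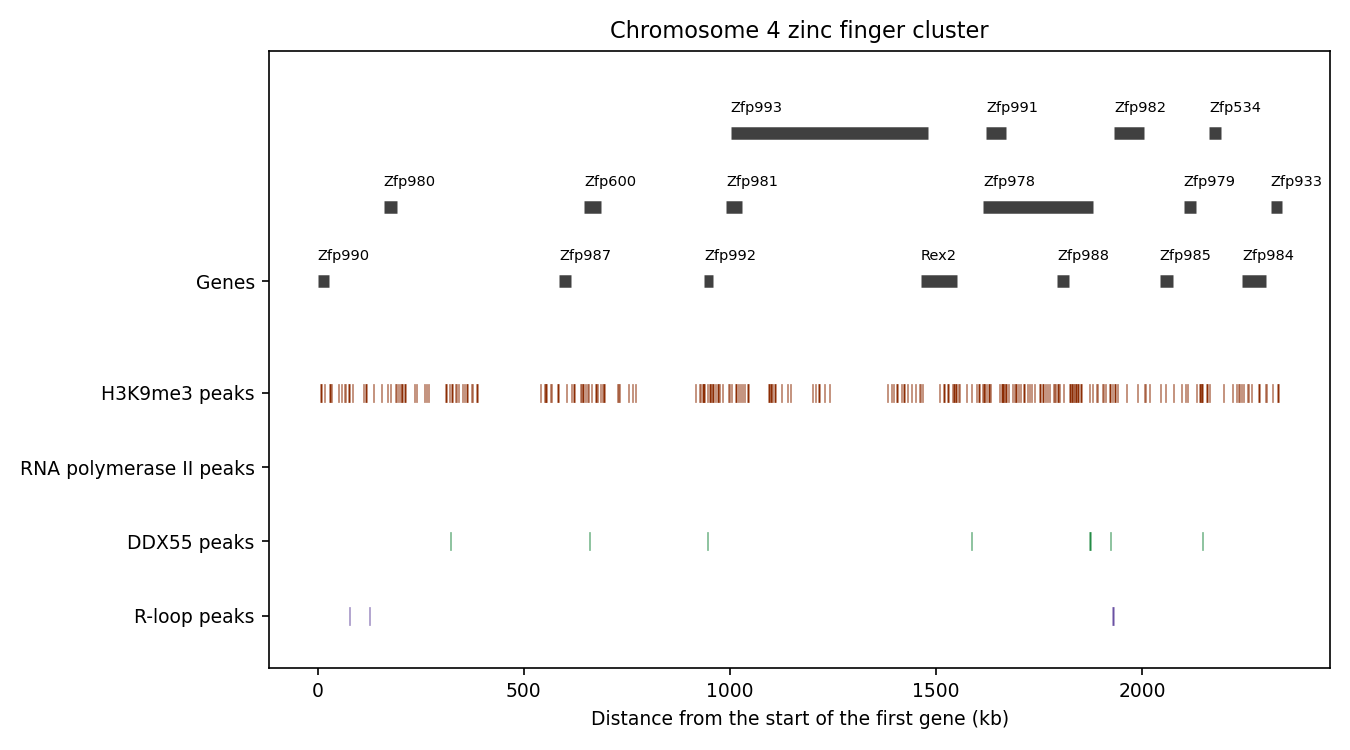
The chromosome 4 cluster is drawn to scale in kb from the start of its first gene, with the 17 genes above and the peaks of the 4 lists below (drawn at least 3 kb wide). The 208 H3K9me3 peaks run along its length with 3 stretches of 141 to 150 kb without a peak, RNA polymerase II has 0 peaks, DDX55 has 7 and R-loops have 3.

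The other clusters differed from this one. On chromosome 13 (chr13:66670274-67827000) 8 of 20 zinc finger genes with names that fit the rule were marked, and the covered length was 2.06% of the cluster. Zfp874a, Zfp874b, Zfp729a and Zfp729b also lay there, but their letter suffixes left them out. Of these, Zfp874b and Zfp729b met H3K9me3. Shares in the 8 genes ran from 1.91% in Zfp595 to 26.3% in Zfp640, and the 12 unmarked genes with such names included Zfp65, Zfp87 and Zfp493. RNA polymerase II lay on the span of 3 of the 8 marked and 4 of the 12 unmarked genes, and within 3000 bp of a gene end in 1 of the 8 marked and 4 of the 12 unmarked genes. On chromosome 17 (chr17:22144355-23193284) 6 of 7 were marked, from 3.06% in Zfp946 to 7.88% in Zfp758, and none of the 6 had RNA polymerase II on the span. On chromosome 2 the range was 2.69% in Zfp345 to 4.90% in Zfp937. On chromosome 7 it was 2.02% in Zscan18 to 25.2% in Zfp110. The chromosome 10 cluster had the next highest coverage after chromosome 4, with 6.55% of its length marked.

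DDX55 lay on 3 marked genes, all in the chromosome 4 cluster. They were Zfp600 with a peak of 605 bp (chr4:146168043-146168647), Zfp978 with 468 bp (chr4:147383253-147383720) and Zfp992 with 351 bp (chr4:146454281-146454631). Every base of the DDX55 peaks on Zfp600 and Zfp978 lay under H3K9me3, and 97 bp of that on Zfp992 did. This made 3 of 98 genes (3.06%, exact 95% interval 0.636% to 8.69%), beside 0.324% of all protein-coding genes. It was 38 of the 1083 other marked genes (3.51%) and 1 of 291 unmarked zinc finger genes (0.344%, Zfp704). The cluster held 7 DDX55 peaks in all, each touching an H3K9me3 peak. The share of all 215 DDX55 peaks that touch H3K9me3 was not computed. This overlap is therefore not shown to be particular to the cluster. The other 7 clusters held 0 DDX55 peaks. The DDX55 list is also named by samples in which DDX55 was knocked out, so loss of these peaks in DDX55 KO cells was not measured.

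An R-loop peak lay on 1 marked gene, Zfp950 on chromosome 19. The peak of 889 bp (chr19:61073367-61074255) was 44346 bp from the nearest H3K9me3 peak and 66357 bp from the nearest RNA polymerase II peak. The share of 1 in 98 (1.02%, 0.0258% to 5.55%) stands beside 1.59% of all protein-coding genes, 3 of 291 unmarked zinc finger genes (1.03%) and 92 of 1083 other marked genes (8.49%). In the chromosome 4 cluster 3 R-loop peaks lay between or beside the zinc finger genes, and on chromosome 17 there were 2, the wider 1652 bp and entirely under H3K9me3. Because samples with RNase H named the same list, these peaks are not known to be RNase H-sensitive.

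The median promoter of the marked genes held fewer CpG sites than that of unmarked zinc finger genes. The window from 250 bases before to 50 after the outermost listed start was available for 81 marked and 240 unmarked zinc finger genes and for 17492 protein-coding genes. In 9 of the 81 marked genes this start lay over 1000 bp inside the span, by 12920 bp in Zfp981, 48240 bp in Rex2 and 63424 bp in Zfp936, whereas positions along the span count from its outer end. The median number of CG dinucleotides was 10 in marked genes, 15 in unmarked zinc finger genes and 13 in all genes. It was 13 in the 23 marked genes whose window carried an RNA polymerase II peak and 9 in the 58 without, which include the 13 windows of the chromosome 4 cluster. Outside clusters these medians were 13 and 10.5. The same direction was present in unmarked zinc finger genes (16.5 and 13) and in all protein-coding genes (23 and 7). The windows of the chromosome 4 cluster had a median of 5, with a range of 3 to 16 over 13 genes, and a median GC content of 42.3%, against 52.3% for all marked genes. H3K9me3 touched the window of 8 of the 81 marked genes (9.88%), beside 0.423% of all and 59 of 846 other marked protein-coding genes (6.97%). Of the 8 genes 6 belong to that cluster. H3K9me3 covered all 300 bases in Zfp981 and 3 to 151 bases in the other 7. The genes outside that cluster were Zfp180 and Zfp936. RNA polymerase II touched the window of 23 of the 81 (28.4%), beside 25.9% of all.

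Promoter windows of both kinds are shown, because the peaks that touch them differ. The first 3 touch H3K9me3 in the chromosome 4 cluster and the last 3 touch RNA polymerase II, each the 3 genes with the largest covered share of their kind. The sequences are from RefSeq (GRCm38.p6), 5′ to 3′ along the gene's strand, with every CG in capitals. They are Zfp981 (chr4:146514670-146514969, plus strand), Rex2 (chr4:147021600-147021899, plus), Zfp984 (chr4:147809739-147810038, minus), Zfp110 (chr7:12834511-12834810, plus), Zfp68 (chr5:138619694-138619993, minus) and Zfp959 (chr17:55891843-55892142, plus).
Zfp981: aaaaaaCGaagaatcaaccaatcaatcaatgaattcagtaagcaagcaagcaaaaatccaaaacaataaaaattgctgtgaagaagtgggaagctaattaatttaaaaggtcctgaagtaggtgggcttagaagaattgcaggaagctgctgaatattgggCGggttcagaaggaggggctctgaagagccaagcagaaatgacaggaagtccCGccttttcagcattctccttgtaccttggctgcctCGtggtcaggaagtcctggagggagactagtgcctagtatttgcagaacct
Rex2: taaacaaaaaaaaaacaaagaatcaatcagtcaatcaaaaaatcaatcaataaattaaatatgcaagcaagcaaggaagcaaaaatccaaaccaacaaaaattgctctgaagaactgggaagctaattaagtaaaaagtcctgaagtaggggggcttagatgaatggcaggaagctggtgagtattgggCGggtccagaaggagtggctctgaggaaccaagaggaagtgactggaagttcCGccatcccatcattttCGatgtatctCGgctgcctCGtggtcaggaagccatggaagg
Zfp984: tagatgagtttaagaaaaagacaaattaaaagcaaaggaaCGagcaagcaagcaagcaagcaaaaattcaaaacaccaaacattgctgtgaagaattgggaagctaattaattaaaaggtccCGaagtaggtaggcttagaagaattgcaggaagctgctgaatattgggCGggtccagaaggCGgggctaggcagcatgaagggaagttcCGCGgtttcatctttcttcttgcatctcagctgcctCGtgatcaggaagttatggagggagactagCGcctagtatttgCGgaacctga
Zfp110: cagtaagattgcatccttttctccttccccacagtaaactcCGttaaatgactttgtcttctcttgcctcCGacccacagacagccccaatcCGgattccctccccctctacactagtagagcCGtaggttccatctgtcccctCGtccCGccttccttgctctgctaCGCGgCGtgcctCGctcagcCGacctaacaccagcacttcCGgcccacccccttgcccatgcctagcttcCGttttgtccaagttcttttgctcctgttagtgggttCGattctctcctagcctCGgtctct
Zfp68: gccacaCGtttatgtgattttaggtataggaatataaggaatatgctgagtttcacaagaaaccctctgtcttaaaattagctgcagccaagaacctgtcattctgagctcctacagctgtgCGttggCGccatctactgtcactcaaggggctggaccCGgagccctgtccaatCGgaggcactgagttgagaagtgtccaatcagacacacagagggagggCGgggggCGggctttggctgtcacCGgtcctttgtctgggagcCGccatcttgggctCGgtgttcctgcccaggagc
Zfp959: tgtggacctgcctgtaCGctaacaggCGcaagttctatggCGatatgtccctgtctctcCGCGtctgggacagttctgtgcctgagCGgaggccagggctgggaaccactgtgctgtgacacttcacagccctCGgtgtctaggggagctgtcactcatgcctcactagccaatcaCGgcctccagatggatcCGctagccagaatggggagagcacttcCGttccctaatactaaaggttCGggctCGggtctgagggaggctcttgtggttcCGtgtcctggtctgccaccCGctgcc

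H3K9me3 covered 300, 55 and 120 bases of the windows of Zfp981, Rex2 and Zfp984. RNA polymerase II covered 300, 66 and 300 bases of those of Zfp110, Zfp68 and Zfp959. The windows of Zfp981, Rex2 and Zfp984 held 4, 5 and 9 CG, and those of Zfp110, Zfp68 and Zfp959 held 15, 10 and 14. The 6 letters GGGCGG, searched on both strands, were present in 9 of 13 windows of the chromosome 4 cluster. This compares with 32 of 81 marked genes (39.5%), 108 of 240 unmarked zinc finger genes and 46.3% of all protein-coding windows. CCGGAAG, also on both strands, was in 0 of the 13, although 21 of 81 marked genes (25.9%), 54 of 240 unmarked zinc finger genes (22.5%) and 11.9% of all windows held it. TATAAA was in 3 of 81 marked genes (3.70%), 16 of 240 unmarked zinc finger genes (6.67%) and 13.3% of all windows. None of these motifs contains another. A match is only a run of letters and was not tested as a binding site.

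Of the 13 promoter windows of the chromosome 4 cluster, 10 resembled each other, with identities of at least 51.7% over their 45 pairs. Those of Zfp982, Zfp993 and Zfp933 did not, at 38.7% to 47.3% in their 33 pairs. Over its 78 pairs of windows the identity in a global alignment ranged from 38.7% to 99.3% with a median of 65.3%, and 14 pairs, made up of 8 of the 13 genes, reached 80%. Among the 666 pairs outside clusters the median was 45.7%, and 1 pair reached 80% (Zfp936 and Zfp977). Rex2 and Zfp600 were 99.3% identical, and the H3K9me3 peak that touched the Rex2 window covered 55 of its 300 bases. Short reads from copies this alike can be placed on the wrong copy, so which gene of the cluster carried a given peak is uncertain.

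The genes that work with KRAB zinc finger proteins or with H3K9me3 were examined as a list of 24. RNA polymerase II lay on the span of 16, beside 32.2% of all protein-coding genes. H3K9me3 lay on 0, beside 5.40% of all, DDX55 on 0, beside 0.324%, and R-loops on 0, beside 1.59%. Counts of 0 in 24 genes are near these low backgrounds. Trim28, the corepressor of KRAB proteins, had 3 RNA polymerase II peaks. Atf7ip, a partner of SETDB1, and Mphosph8 of the HUSH complex had 1 each, as did Cbx3 and Cbx5, which encode HP1 proteins that bind H3K9me3. The peaks on Cbx3 and Cbx5 were 1659 and 1646 bp wide and shared 264 bp with each span, so the start they belong to cannot be told apart. The H3K9 methyltransferase genes Suv39h1 and Suv39h2 had 1 each, of which that on Suv39h1 shared only 44 bp with the span. Setdb1, Ehmt1 and Cbx1 had 0 on the span and 0 within 3000 bp of a gene end.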

How the data were processed

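CUT&Tag peaks of 4 targets were used. The values the authors deposited are genomic positions, another unit than counts: 1 merged list per target with the start and end of each peak. The submitters' processing notes name MACS3 3.0.0b1 as well as Bowtie2 2.5.0, fastp 0.12.4, ChIPseeker 1.30.3 and SAMtools 1.15.1, and mm10 as the build. How peaks were thresholded and merged, and whether controls entered, is not given in the sources used here, nor whether samples came from separate mice. The 2 HA and 1 IgG samples name no list and were not analysed here.

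Genes and starts came from RefSeq tables of GRCm38.p6, in which 321 of the 389 zinc finger genes have a strand and a promoter window. Overlap of at least 1 bp was computed with pandas 2.3.3 and numpy 2.4.6, checked with bedtools 2.31.1 and tested on simulated intervals. Identity is 300 bases less the edit distance (edlib 1.3.9.post1), as a share. Intervals are exact Clopper-Pearson 95% (scipy 1.17.1). Exons and proteins were not used here, and the planned counts of zinc fingers per protein were not made.

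Members, gene lists and cluster rules were chosen with earlier results of these data known. Genes were named by covered share and length (10 each), DDX55 or R-loop peaks, cluster extremes, RNA polymerase II width (10) and distance from the rule's limit. Others were chosen after their values were seen.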

Additional observations from a re-analysis of the deposited data

How the results depend on the processing

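Of 39 alternatives, 27 stayed within the limits set for their result (1.5 times a count or a difference, or the 95% interval of a share or median), 12 moved and 0 reversed. A reversal could be recorded only for the difference between marked and unmarked genes in RNA polymerase II. Counts, shares and medians could only stay or move. Leaving out RNA polymerase II peaks that touch H3K9me3 changed no call of an unmarked gene, an outcome nearly fixed by the rule. Unmarked genes have no H3K9me3 on the span, and 5 of 291 had it within 3000 bp of a gene end. This alternative still counts among the 27. Other alternatives could move in 1 direction only. Leaving out genes below 5% coverage can only raise the median covered share. Narrower windows or fewer peaks can only lower a share of genes with a peak, and extended spans can only raise a count. They are in the tally too, so it does not measure how firm the results are. The number of marked genes was 67 to 109 (98 as reported). Counting members with at least 5% coverage, the median covered share was 9.07%. Outside clusters parts 6 to 10 of 10 held 92.0% of the mark, 41.7% had RNA polymerase II near a gene end, and DDX55 lay on 0 genes. Marked genes outside clusters minus all unmarked genes, in clusters or not, gave -4.38 percentage points for RNA polymerase II in place of -17.5. Other marked genes with like spans, an alternative chosen after seeing the data, had 56.9% in parts 6 to 10 of 10. With windows of 1000 bp, 29.6% had H3K9me3 near the last base. With the wider 50% of RNA polymerase II peaks, 14.3% of marked and 22.7% of unmarked zinc finger genes had one near a gene end (difference -8.39). Without the chromosome 4 cluster, also chosen after seeing the data, the difference was -11.5. With spans extended by 3000 bp, R-loop peaks met 2 genes. The cause of these shifts was not tested. The alternatives for zinc fingers per protein were not run. No paired analysis was possible because each list merges its samples, and for the same reason no replicate could be left out. The lists hold no counts, so a gene without a peak is not shown to lack the mark.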

Other observations

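Other genes inside the clusters were marked as well. Across all protein-coding genes 5.40% met H3K9me3, while the shares over all noncoding genes and pseudogenes were not computed. In the chromosome 4 cluster 6 of 7 long noncoding RNA genes, 25 of 47 pseudogenes and 3 of 5 transcribed pseudogenes met it. The 1 other protein-coding gene there, Gm13212 (17.0% of its span), did so too. None of these had an RNA polymerase II peak. Gm13212 also carried an R-loop peak of 475 bp that lay entirely under H3K9me3, and the pseudogene Znf41-ps carried a DDX55 peak of 306 bp that did so too. In the chromosome 10 cluster 6 of 9 other protein-coding genes were marked, among them BC024063 and AU041133. In the chromosome 13 cluster 3 of 11 were marked (Gm10323, Zfp874b and Zfp729b). There 7 of 11 had RNA polymerase II on the span, beside 32.2% of all protein-coding genes. These genes were chosen after their values were seen.

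The H3K9me3 peaks of the chromosome 4 cluster left 3 stretches of 150, 144 and 141 kb without a peak, while the next longest was 52.4 kb. Assembly gaps and regions that short reads cannot reach were not analysed here, and their part in these stretches was not tested.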
